A study of Mus musculus with 6 samples.

Results

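The genes described here are 47 genes of ribosome biogenesis and RNA polymerase I, chosen by their known function and grouped by role into 7 genes of the polymerase I machinery, 15 small-subunit factors, 13 large-subunit factors, 8 components or partners of small nucleolar ribonucleoproteins (snoRNPs) and 4 general nucleolar proteins. All 47 were measured, among 18193 genes in all, each by the brightest of its probe sets that carry 1 gene. The cells were RAW264.7, a mouse monocytic line that can form osteoclast-like cells under RANKL, kept for 24 hours in alpha-MEM with glucose, glutamine, penicillin/streptomycin and 10% fetal bovine serum at a sodium concentration of 137 mmol/l (normal sodium, 3 arrays) or 120 mmol/l (low sodium, 3 arrays). The low-sodium medium was made by dilution, with mannitol added to hold osmolality at 290 mOsm/l. The media thus differ at least in mannitol as well as in sodium, and whether the dilution lowered other components cannot be told here. The labels name cytokines, 10 ng/ml of M-CSF (spelled M-SCF there) and 30 ng/ml of RANKL, right after the low-sodium medium. Whether the normal-sodium cells had them too is unclear, and if not, sodium and the cytokines cannot be told apart. The labels describe 4 biological replicates per medium of this single line, and 3 per medium were analysed here. Expression was read on Affymetrix mouse arrays from biotin-labelled total RNA.

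Ribosomes are built in the nucleolus. RNA polymerase I transcribes one long precursor RNA there, from which the ribosomal RNA of the small subunit and the larger RNAs of the large subunit are cut, and snoRNPs guide the chemical modification of that precursor while separate sets of factors fold, cut and carry the subunits forward. Production follows growth, and the genes of these factors are well known to rise with the transcription factor MYC and to be high in dividing cells.

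The replicate 3 arrays of both media stood apart from the other 4. The labelling controls, which are bacterial transcripts spiked into the RNA, had a mean log2 intensity of 8.52 there and of 10.34 in replicates 1 and 2. Each batch, meaning replicates 1 and 2 or replicate 3, holds arrays of both media. The differences below are therefore given over all 6 arrays, within replicates 1 and 2 and within replicate 3, and tested by limma in a fit of the medium alone (the unblocked fit) and in a fit with replicate 3 as a batch term and a trended prior (the batch-term fit). Macrophage markers were high in both media, with 7 of 7 measured, a median log2 intensity of 12.64 and summed intensities of 83441 to 96002 in normal sodium and 88511 to 105454 in low sodium, and markers of T cells, B cells, fibroblasts and epithelium had list medians between 4.13 and 5.82. All 7 measured osteoclast markers were higher in low sodium by their means, 5 of them past the batch-term fit, and their summed intensity was 751 to 2093 in normal sodium and 6144 to 7430 in low sodium. No listed marker was at 0 on all arrays. Of the macrophage markers only 1 of 7 passed the batch-term fit, the surface receptor gene Adgre1, which rose by 0.96 (adjusted p = 0.0032). In replicates 1 and 2 alone 4 of the 7 were called higher. Csf1r went the other way, at -0.16 and lower within all 3 replicate numbers, and Spi1 and Lyz2 differed by 0.01 each. The osteoclast markers and some macrophage markers thus moved with the medium, and their part in the differences below was not tested.

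Most of the 47 genes were slightly lower in low sodium, by a median log2 difference of -0.24 (low minus normal), against -0.01 over all genes. Without low-sodium replicate 3 the members' median was -0.14, with normal-sodium replicate 3 still among the arrays. In replicates 1 and 2 alone, without either replicate 3 array, it was -0.24. In RNA of a whole culture, fewer cells of a kind and less RNA in each cell cannot be told apart. The difference was below 0 in 40 members and above 0 in 7, whereas it was below 0 in 50.8% of all genes and in 54.4% of the 7344 genes at least as bright as the dimmest member. In the batch-term fit 11 members fell, 0 rose and 36 did not pass (adjusted p under 0.05, Benjamini-Hochberg over all 18193 genes). That fit called 3.81% of all genes lower and 3.78% higher, and of the 7344 bright genes it called 8.8% lower and 8.17% higher. The 11 were Ddx21, Ncl and Npm1 among the general nucleolar proteins, Dkc1, Nolc1, Nop10, Fbl and Nop56 among the snoRNP genes, Ubtf and Polr1c in the polymerase I machinery and Bop1 among the large-subunit factors. Their differences ran from -0.73 to -0.29, which is a fold of 1.65 to 1.22 between the media. "Fell" and "rose" refer to the batch-term fit throughout, and standard errors (SE) are from it.

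The unblocked fit called 0 of the 47 members, with 2 members, Nop10 and Ddx21, at an unadjusted p under 0.05, both lower. It called 0.0055% of all genes, or 1 gene, and 0% of the bright genes. An unadjusted p under 0.05 was reached by 8.15% of all genes (3.86% lower in low sodium). Its smallest adjusted p among the members was 0.559. The replicate number as a block with a trended prior left 2 members past the threshold, Ddx21 and Nolc1, where 1.29% of all genes and 3.02% of the bright genes were called lower. The count of 11 became 2 or 3 in the batch-term fit without replicate 1 or replicate 2 of either medium (2 without normal-sodium or low-sodium replicate 1, 3 without normal-sodium or low-sodium replicate 2). It became 23 without normal-sodium replicate 3 and 24 without low-sodium replicate 3, both of which rest on replicates 1 and 2 for the difference. With a constant prior in the batch-term fit it became 0. Ddx21 and Nolc1 passed in all 6 of the fits that left out 1 array. Plain differences of means also moved when a replicate 3 array was left out. The media then held the batches unequally, and what moved each gene was not tested. Without low-sodium replicate 3 they were -0.32 in Ubtf, -0.31 in Nolc1, -0.27 in Dkc1 and -0.07 in Nop56. Without normal-sodium replicate 3 they were -0.32 in Fbl and -0.52 in Nop56. In the batch-term fit, leaving out either replicate 3 array moved Dkc1 to -0.46 and Ubtf to -0.34. The same fit then gave -0.50 in Nolc1, -0.42 in Fbl and -0.24 in Nop56.

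Within replicate numbers, 27 members were lower in low sodium in all 3 comparisons, 1 was higher in all 3 and 19 were mixed. Over all genes 20.7% were lower in all 3, and 31.8% of the bright genes were, while 20% of all genes and 25.5% of the bright genes were higher in all 3. In 10 members every low-sodium array lay below every normal-sodium array, and in 0 every one lay above, where 9.07% of all genes and 15.6% of the bright genes lay wholly below and 8.44% and 12.3% wholly above. The 10 were Ddx21, Ncl, Npm1, Nop10, Fbl, Ubtf, Noc4l, Pes1, Ppan and Noc2l. The median over members was -0.21, -0.25 and -0.21 within replicates 1, 2 and 3, against 0.00, 0.03 and -0.06 over all genes. Replicates 1 and 2 alone, with a trended prior, called 24 members lower and 0 higher (7.6% and 7.27% of all genes, 17.8% and 15% of the bright genes). Of these 24, 20 were also below 0 in replicate 3, a share of 83.3% that lay near the 81.8% of all genes called lower there.

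**Figure D1:**
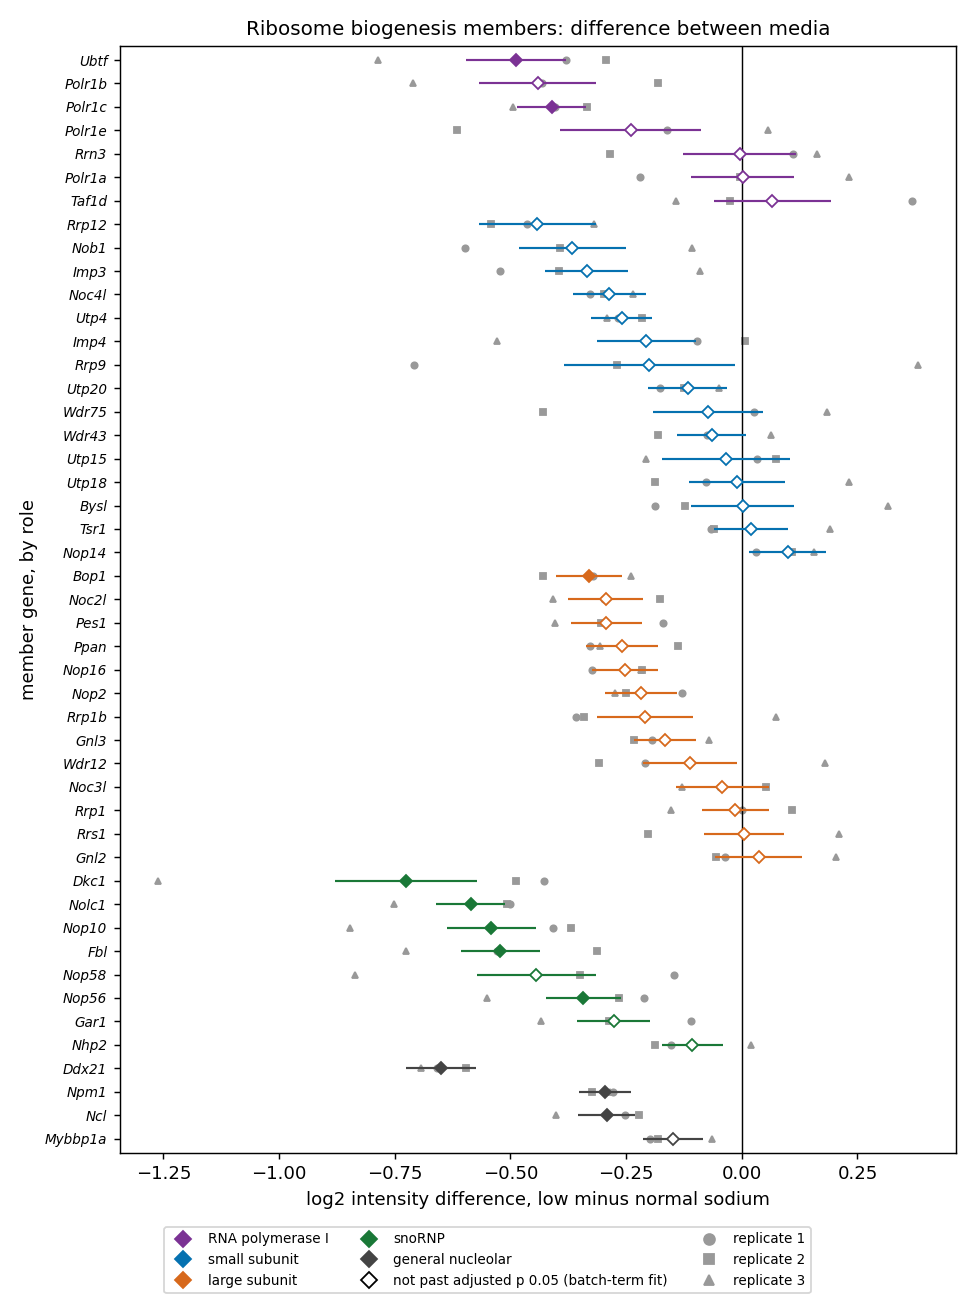
Difference in log2 intensity between low and normal sodium for each of the 47 members, grouped by role. Diamonds give the mean difference over 3 against 3 arrays with its standard error from the batch-term fit, filled where the adjusted p was under 0.05, and grey symbols give the difference within each replicate number. Most diamonds lie left of 0, and the 11 filled ones run from -0.73 in Dkc1 to -0.29 in Ncl.

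The promoters of the members were searched for CACGTG, the E-box bound by MYC and MAX, which reads the same on both strands. RefSeq windows of 300 bases (GRCm38.p6, 250 bases before the start of the gene and 50 after) were matched by symbol for 41 of the 47 members. The motif stood in the windows of 10 of the 41 members (24.4%), against 7.15% of all 32851 windows and 10.2% of the measured genes that have a window. By role it stood in 6 of 14 small-subunit factors, 2 of 10 large-subunit factors, 1 of 7 polymerase I genes, 1 of 3 general nucleolar genes and 0 of 7 snoRNP genes. Of the 8 genes that fell and had a window 0 held it, against 10 of the 33 that did not pass. With so few genes, 0 of 8 lies near the 10.2% of measured genes, and the difference was not tested. A match is a run of letters, not a shown binding site, and the absence of a match says only that these letters are not in the window. The 10 were Rrn3, Nop2, Pes1, Imp4, Utp4, Utp18, Utp20, Tsr1, Wdr43 and Mybbp1a, and their log2 differences ran from -0.29 in Pes1 to 0.02 in Tsr1. The sequences of Rrn3, Nop2 and Pes1 show where the motif lies, and those of Ddx21, Nolc1 and Dkc1 are the windows of the members with the 3 largest differences. Capitals mark the motif, and the windows of the last 3 genes hold none.
Rrn3 (chr16:13780449-13780748, plus strand): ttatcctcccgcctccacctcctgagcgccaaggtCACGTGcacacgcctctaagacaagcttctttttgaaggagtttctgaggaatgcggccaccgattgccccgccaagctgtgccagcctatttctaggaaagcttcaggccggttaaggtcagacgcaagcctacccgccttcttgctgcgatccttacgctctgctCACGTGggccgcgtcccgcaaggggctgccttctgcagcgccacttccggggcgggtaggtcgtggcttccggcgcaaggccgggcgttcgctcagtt
Nop2 (chr6:125131633-125131932, plus strand): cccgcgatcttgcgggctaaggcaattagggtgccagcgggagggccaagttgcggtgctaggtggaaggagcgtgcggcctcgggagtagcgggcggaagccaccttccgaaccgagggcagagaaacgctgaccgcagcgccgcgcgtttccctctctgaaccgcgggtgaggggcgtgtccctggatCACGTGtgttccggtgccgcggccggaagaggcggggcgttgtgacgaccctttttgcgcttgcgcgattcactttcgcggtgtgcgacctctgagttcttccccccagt
Pes1 (chr11:3963725-3964024, plus strand): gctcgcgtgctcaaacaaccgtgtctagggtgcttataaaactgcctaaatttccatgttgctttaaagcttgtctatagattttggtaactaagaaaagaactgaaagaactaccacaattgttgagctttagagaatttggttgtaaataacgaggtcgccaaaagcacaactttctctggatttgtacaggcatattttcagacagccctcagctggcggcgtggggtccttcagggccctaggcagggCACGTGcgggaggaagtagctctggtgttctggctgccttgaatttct
Ddx21 (chr10:62602249-62602548, minus strand): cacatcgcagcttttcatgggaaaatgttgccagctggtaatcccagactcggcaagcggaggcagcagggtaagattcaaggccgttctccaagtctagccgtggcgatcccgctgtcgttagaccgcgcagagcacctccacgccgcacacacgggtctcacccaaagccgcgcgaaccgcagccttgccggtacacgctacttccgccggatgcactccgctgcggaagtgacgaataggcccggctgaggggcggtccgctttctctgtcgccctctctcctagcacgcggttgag
Nolc1 (chr19:46075597-46075896, plus strand): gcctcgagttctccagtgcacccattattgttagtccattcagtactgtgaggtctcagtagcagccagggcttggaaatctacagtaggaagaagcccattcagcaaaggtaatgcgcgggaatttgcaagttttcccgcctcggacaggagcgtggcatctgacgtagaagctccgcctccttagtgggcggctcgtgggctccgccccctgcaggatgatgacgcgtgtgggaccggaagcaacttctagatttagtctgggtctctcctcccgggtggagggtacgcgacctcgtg
Dkc1 (chrX:75095604-75095903, plus strand): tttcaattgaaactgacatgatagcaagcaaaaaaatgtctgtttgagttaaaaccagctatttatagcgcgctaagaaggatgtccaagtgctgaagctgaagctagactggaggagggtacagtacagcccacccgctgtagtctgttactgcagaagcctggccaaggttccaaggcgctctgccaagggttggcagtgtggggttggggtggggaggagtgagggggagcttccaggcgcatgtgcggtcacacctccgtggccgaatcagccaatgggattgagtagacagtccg
In Rrn3 the motif began 215 and 48 bases upstream of the annotated start, in Nop2 60 bases upstream, and in Pes1 2 bases downstream of it.

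The general nucleolar proteins held 3 of the 11 genes that fell. Ddx21 encodes an RNA helicase that acts in polymerase I transcription and in the processing of its product. Its log2 intensity was 11.38, 11.25 and 10.93 in normal sodium and 10.72, 10.65 and 10.23 in low sodium. Every low-sodium array was below every normal-sodium array, and the replicate 3 array was the lowest of each medium. Ddx21 fell by 0.65 ± 0.08 on the log2 scale (SE, n = 3 against 3, adjusted p = 0.00433), which is 1.57-fold, and its unblocked standard error was 0.23 (adjusted p = 0.586). The fall was almost the same in both batches, at -0.63 in replicates 1 and 2 and -0.69 in replicate 3. A further probe set of Ddx21, above the median of all probe sets that carry 1 gene, had a smaller difference of -0.26. It was almost as bright as the chosen one (mean log2 intensity 10.85 against 10.86), and the mean of both gave -0.46.

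Ncl encodes nucleolin, an abundant RNA-binding protein of the nucleolus. Its log2 intensity was 14.27, 14.25 and 14.27 in normal sodium and 14.02, 14.03 and 13.87 in low sodium. The normal-sodium arrays of Ncl spread by an SD of only 0.01, and all 3 low-sodium arrays lay below them. The difference was -0.29 ± 0.06 (adjusted p = 0.0334), and 3 further above-median probe sets gave -0.92, -0.40 and -0.34. Npm1 encodes nucleophosmin, a histone chaperone and carrier of ribosomal subunits, and has near-identical pseudogene copies that its probes could also read. Its values were 14.54, 14.57 and 14.77 in normal sodium and 14.26, 14.24 and 14.49 in low sodium. Again the groups did not overlap, although here the replicate 3 arrays were the highest of each medium, and Npm1 fell by 0.30 ± 0.06 (adjusted p = 0.0218). Mybbp1a, whose product restrains polymerase I and processes its transcript, did not pass at -0.15 ± 0.07 (adjusted p = 0.245).

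The snoRNP genes had the lowest median of the 5 roles, -0.48 over 8 genes, with 5 that fell and none above 0. Their median was -0.74 within replicate 3 but only -0.32 in replicates 1 and 2. In replicates 1 and 2 the polymerase I genes lay close to that, at -0.31, and the general nucleolar proteins were at -0.27. The large-subunit factors were at -0.23 there and the small-subunit factors at -0.16. The roles were compared by their medians and counts alone, and no difference between roles was tested. Nolc1 encodes Nopp140, a nucleolar chaperone of snoRNPs. Its log2 intensity was 12.34, 12.30 and 11.74 in normal sodium and 11.84, 11.79 and 10.99 in low sodium. The groups overlapped through normal-sodium replicate 3, but within each replicate number the low-sodium array was lower by at least 0.50. Nolc1 fell by 0.59 ± 0.07 (adjusted p = 0.0057), or 1.5-fold, and its 2 further above-median probe sets gave -0.90 and -0.73.

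Among the box C/D proteins, which form the particles that methylate ribosomal RNA, Fbl encodes the methyltransferase fibrillarin. Its values were 12.54, 12.46 and 13.10 in normal sodium and 12.01, 12.14 and 12.37 in low sodium. All low-sodium arrays were below all normal-sodium arrays, while replicate 3 was the highest of each medium. Fbl fell by 0.52 ± 0.09 (adjusted p = 0.0131, and 0.0511 with the replicate block), and a further above-median probe set gave -0.54. Nop56 and Nop58 encode the core scaffold proteins of the same particle. Nop56 fell by 0.34 ± 0.08 (adjusted p = 0.0477), close to the threshold, and lost the call under 7 of 8 other settings of the batch-term fit. Nop58 had a difference of -0.44 ± 0.13 that did not pass (adjusted p = 0.0894), with -0.25 in replicates 1 and 2 and -0.84 in replicate 3.

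The H/ACA particles, which convert uridine to pseudouridine, are made of Dkc1, Nhp2, Nop10 and Gar1 proteins. Nop10 had the smallest unadjusted p of all 47 members in the unblocked fit. Its values were 13.49, 13.48 and 13.67 in normal sodium and 13.09, 13.12 and 12.82 in low sodium. The groups did not overlap, and replicate 3 was the highest array in normal sodium and the lowest in low sodium. Nop10 fell by 0.54 ± 0.10 (adjusted p = 0.0188), and its further above-median probe set gave -0.64. Dkc1, the pseudouridine synthase, had the lowest difference of the 47, at -0.73 ± 0.15 (adjusted p = 0.0323). Its values were 12.19, 12.19 and 11.61 in normal sodium and 11.77, 11.70 and 10.35 in low sodium, and these values are given because the difference was the lowest seen. Low-sodium replicate 3 was far below the other 5 arrays, so the difference came to -1.26 in replicate 3 and to -0.46 in the other replicates. Gar1, at -0.28 ± 0.08 (adjusted p = 0.083), and Nhp2, at -0.11 ± 0.07 (adjusted p = 0.416), did not pass.

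Of the 7 genes of the polymerase I machinery 2 fell and 5 did not pass, with a median of -0.24. Ubtf encodes UBF, the factor that keeps ribosomal DNA open and recruits the polymerase. Its log2 intensity was 10.79, 10.70 and 10.71 in normal sodium and 10.41, 10.41 and 9.92 in low sodium. The groups did not overlap, and low-sodium replicate 3 was the lowest array. Ubtf fell by 0.49 ± 0.11 (adjusted p = 0.0384), with -0.34 in replicates 1 and 2 and -0.79 in replicate 3, and its further above-median probe set gave -0.73.

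Polr1c encodes a subunit that polymerase I shares with polymerase III. Its values were 10.66, 10.66 and 11.61 in normal sodium and 10.26, 10.32 and 11.11 in low sodium. Replicate 3 was far above the other replicates in both media, which made the groups overlap, but low sodium was lower within each replicate number. Polr1c fell by 0.41 ± 0.07 (adjusted p = 0.0186), and a further above-median probe set gave -0.23. Its plain difference of means was -0.10 without normal-sodium replicate 3, -0.69 without low-sodium replicate 3 and -0.26 without low-sodium replicate 1, while the batch-term fit without 1 array gave -0.44 to -0.37.

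Polr1a and Polr1b encode the largest subunits, which form the active centre. Polr1b was at 9.91, 9.69 and 9.13 in normal sodium and at 9.47, 9.51 and 8.41 in low sodium. It was lower in low sodium within each replicate number, and its difference of -0.44 ± 0.13 did not pass (adjusted p = 0.084). Polr1a was at 10.13, 9.93 and 9.18 in normal sodium and at 9.91, 9.93 and 9.41 in low sodium. The groups overlapped fully with equal means of 9.75, and 2 further above-median probe sets of Polr1a were below 0, at -0.33 and -0.13.

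Rrn3, which encodes the factor that makes the polymerase competent to start, was at 9.57, 9.64 and 9.40 in normal sodium and at 9.68, 9.36 and 9.56 in low sodium. Its means of 9.54 ± 0.12 and 9.53 ± 0.16 (SD, n = 3) lay within the spread of either group. Taf1d, a subunit of the promoter selectivity factor, was at 9.61, 9.65 and 9.60 in normal sodium and at 9.97, 9.62 and 9.45 in low sodium. Its difference of 0.07 ± 0.13 was above 0 through low-sodium replicate 1 alone, and 3 of 4 further above-median probe sets of Taf1d were below 0 (-0.58 to -0.27). Polr1e, a subunit on the periphery of the enzyme, was at 8.92, 9.14 and 8.59 in normal sodium and at 8.76, 8.52 and 8.65 in low sodium. The groups overlapped, and its difference of -0.24 ± 0.15 did not pass (adjusted p = 0.432).

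**Figure D2:**
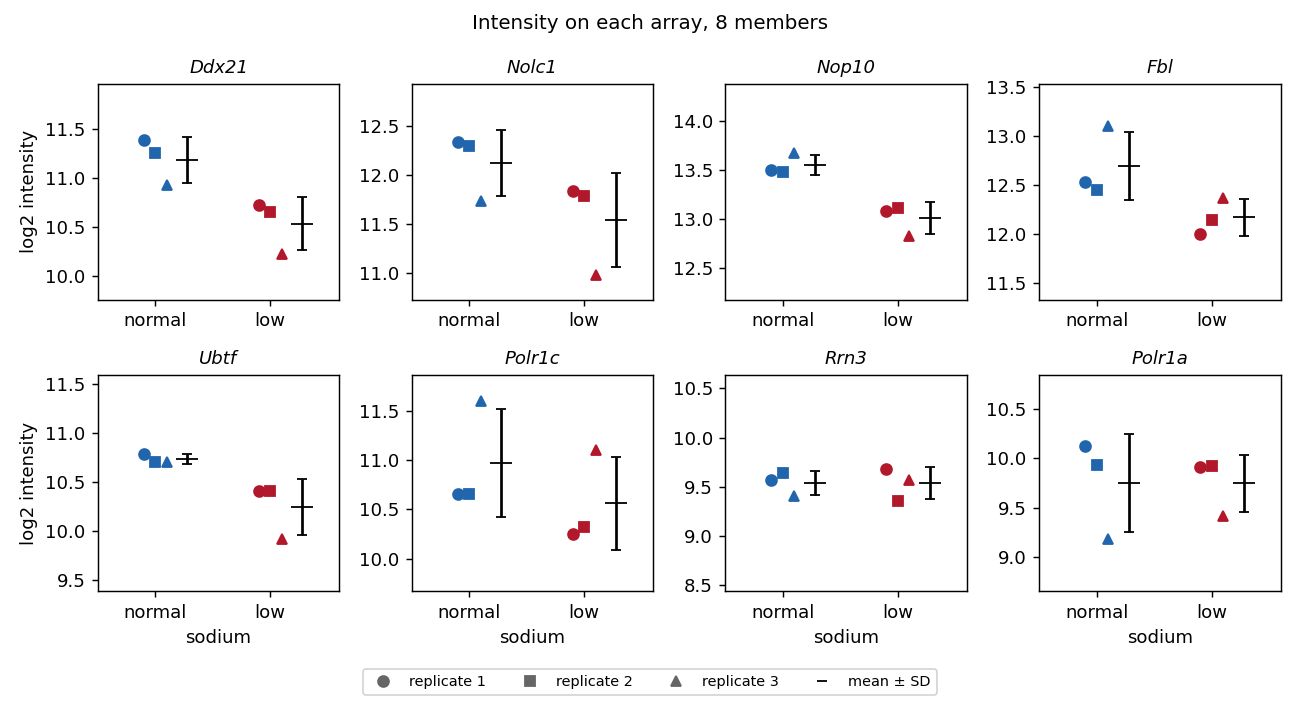
Log2 intensity on each of the 6 arrays for 8 members, with blue symbols for normal sodium, red symbols for low sodium, symbol shape for the replicate number and bars for the mean ± SD of 3 arrays. Each panel spans 2.2 log2 units around its own mean, and the groups stand apart in Ddx21, Nop10, Fbl and Ubtf, overlap through replicate 3 in Nolc1 and Polr1c, and coincide in Rrn3 and Polr1a.

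Of the 13 large-subunit factors 1 fell and 12 did not pass, with a median of -0.21. The batch-term fit called 3.81% of all genes and 8.8% of the bright genes lower, and 1 of 13 lies near those shares. Bop1, Pes1 and Wdr12 encode the PeBoW complex, needed to process the RNA of the large subunit. Bop1 was at 11.41, 11.49 and 11.07 in normal sodium and at 11.09, 11.06 and 10.83 in low sodium. Low-sodium replicate 1 was just above normal-sodium replicate 3, and Bop1 fell by 0.33 ± 0.07 (adjusted p = 0.0358). Its 1 other probe set was dim and went the other way. Pes1 was at 11.39, 11.55 and 11.60 in normal sodium and at 11.22, 11.24 and 11.19 in low sodium. The groups of Pes1 did not overlap, but its difference of -0.29 ± 0.08 did not pass (adjusted p = 0.0655). Its other probe set, below the median of all probe sets, went the other way at 0.73, and the mean of both gave 0.22. Wdr12 differed by -0.11 ± 0.10, with -0.26 in replicates 1 and 2 and 0.18 in replicate 3.

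Ppan, whose product acts in maturation of the large subunit, was at 10.87, 10.84 and 10.94 in normal sodium and at 10.54, 10.70 and 10.63 in low sodium. The groups did not overlap, and the difference of -0.26 ± 0.08 did not pass (adjusted p = 0.101). Noc2l (-0.29), Nop16 (-0.25), the RNA methyltransferase gene Nop2 (-0.22) and Rrp1b (-0.21) were likewise below 0 without passing. Gnl3 encodes nucleostemin, a nucleolar GTPase abundant in proliferating cells. It was at 12.27, 12.35 and 11.93 in normal sodium and at 12.07, 12.12 and 11.86 in low sodium, an overlap that came from normal-sodium replicate 3 alone (difference -0.17 ± 0.07, adjusted p = 0.203). Its relative Gnl2 was at 10.01, 9.95 and 9.87 in normal sodium and at 9.98, 9.90 and 10.07 in low sodium, with no separation and a difference of 0.04 ± 0.09. Noc3l (-0.04), Rrp1 (-0.01) and Rrs1 (0.01) lay within 0.05 of 0.

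None of the 15 small-subunit factors passed in either direction, and their median of -0.12 was the nearest to 0 of the 5 roles. The batch-term fit called 3.81% of all genes and 8.8% of the bright genes lower, and 0 of 15 lies near or below those shares. Replicates 1 and 2 alone, with a trended prior, called 6 of the 15 lower and 0 higher. They called 7.6% of all genes and 17.8% of the bright genes lower. The differences ran from -0.44 in Rrp12 to 0.10 in Nop14. Imp3, of the Mpp10 complex in the small-subunit processome, was at 12.03, 11.94 and 12.04 in normal sodium and at 11.51, 11.54 and 11.95 in low sodium. The low-sodium arrays of replicates 1 and 2 were clearly lower and that of replicate 3 was not, which gave -0.46 in replicates 1 and 2 and -0.09 in replicate 3 (adjusted p = 0.0704). Nob1, the nuclease that makes the final cut at the end of the small-subunit RNA, had the same pattern. Nob1 was at 10.38, 10.13 and 10.57 in normal sodium and at 9.78, 9.74 and 10.46 in low sodium, a difference of -0.50 in replicates 1 and 2 and of -0.11 in replicate 3 (adjusted p = 0.111).

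Noc4l was the 1 small-subunit factor whose groups did not overlap, at 10.83, 10.92 and 10.67 in normal sodium and at 10.50, 10.62 and 10.43 in low sodium (difference -0.29 ± 0.08, adjusted p = 0.0739). Nop14, whose product binds that of Noc4l, was at 10.14, 10.15 and 9.65 in normal sodium and at 10.17, 10.26 and 9.80 in low sodium. It was the only member higher in low sodium within all 3 replicate numbers, by 0.03, 0.11 and 0.16, and its difference of 0.10 ± 0.08 did not pass. Utp4, Utp15, Wdr43 and Wdr75 encode subunits of the complex that first binds the precursor RNA, and they had differences of -0.26, -0.03, -0.07 and -0.07. Rrp9, of the snoRNP that starts processing of the precursor, was at -0.49 in replicates 1 and 2 and at 0.38 in replicate 3. Utp20 (-0.12), Utp18 (-0.01), Bysl (0.00) and the GTPase gene Tsr1 (0.02) were near 0, and Imp4 had -0.21, with 2 further above-median probe sets above 0.

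**Figure D3:**
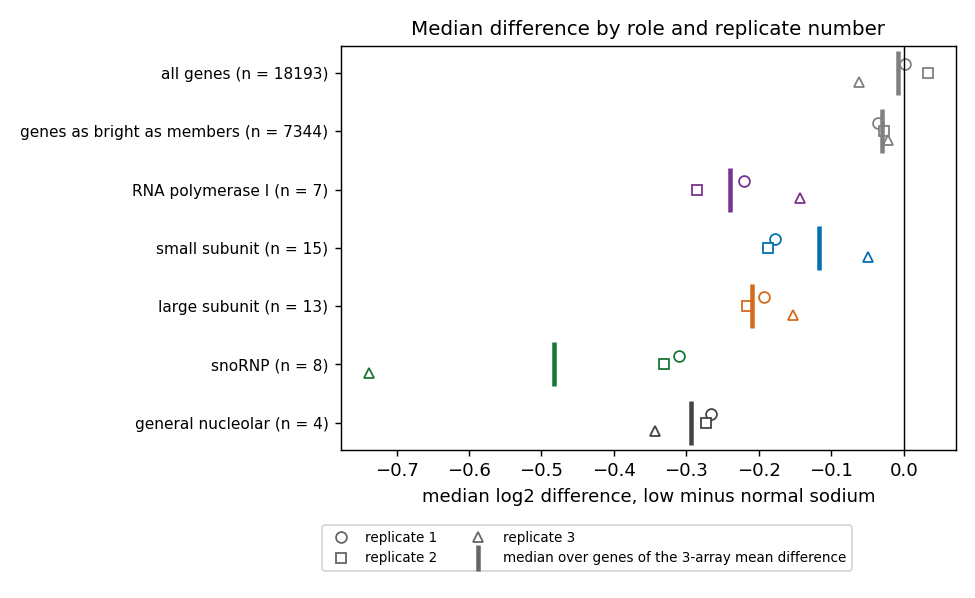
Median log2 difference (low minus normal sodium) over the genes of each role, over all 18193 genes and over the 7344 genes at least as bright as the dimmest member. Thick bars give the median of the difference over all arrays and open symbols the median within each replicate number. Over all arrays the snoRNP genes have the lowest median, at -0.48, and the small-subunit factors the one nearest to 0, at -0.12. Within replicates 1, 2 and 3 the snoRNP median is -0.31, -0.33 and -0.74.

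Many members also differed between the batches. Replicate 3 arrays were below those of replicates 1 and 2 in 36 members and above in 11, with shifts from -0.98 in Dkc1 to 0.88 in Polr1c and a median of -0.23. Over all 18193 genes the shift was below 0 in 10936, with a median of -0.16, and over the 7344 bright genes it was below 0 in 3438, with a median of 0.03. Rrs1, whose product helps to bring the small RNA of the large subunit into the assembling ribosome, was at 12.13, 12.27 and 11.07 in normal sodium and at 12.14, 12.07 and 11.28 in low sodium. Its batches were apart by -0.97 and its media by 0.01. Utp20, Tsr1, Wdr75 and Polr1a had batch shifts between -0.85 and -0.67 with media differences between -0.12 and 0.02. Of the genes that fell, Dkc1, Nolc1, Nop56, Ddx21, Bop1, Ubtf, Ncl and Nop10 were lower on the replicate 3 arrays and Polr1c, Fbl and Npm1 were higher. The labelling of the spiked controls moved with the same split, and its part in these shifts was not tested.

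**Figure D4:**
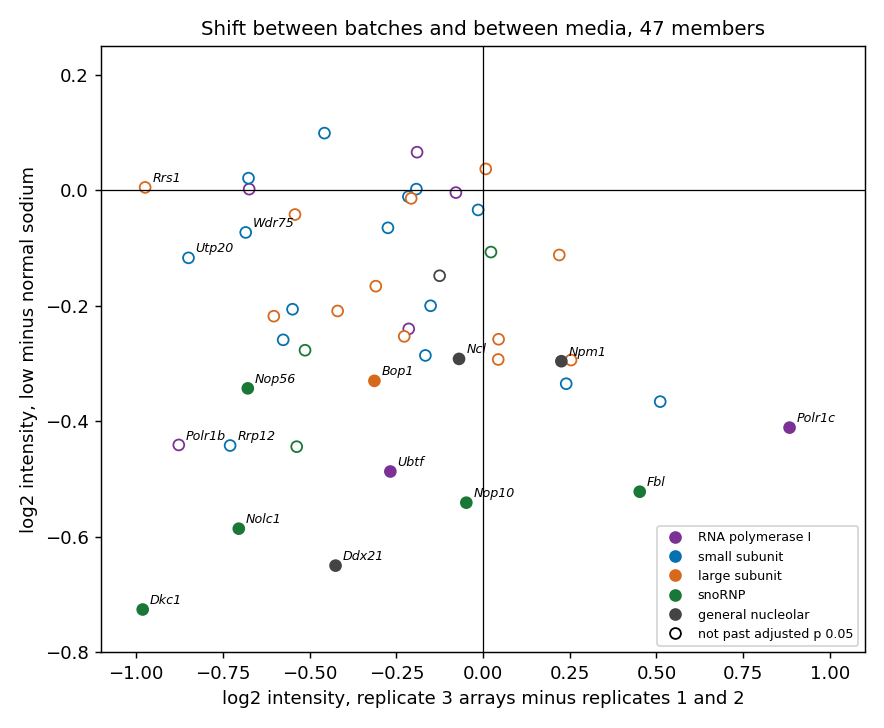
Shift of each of the 47 members between batches (horizontal axis, log2 intensity of the replicate 3 arrays minus that of replicates 1 and 2) against its difference between media (vertical axis, low minus normal sodium), coloured by role and filled where the batch-term fit called the gene. The members spread from -0.98 to 0.88 along the horizontal axis and from -0.73 to 0.10 along the vertical axis, and the 11 filled points lie on both sides of the vertical line.

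Further genes of the same pathway were read from lists chosen by function. Of 14 further polymerase I genes 1 fell and 0 rose, and of 31 further small-subunit factors 2 fell and 0 rose. Of 31 further large-subunit factors 1 fell and 0 rose. Of 9 further genes listed with the snoRNPs, most of them assembly factors, 4 fell and 0 rose. The batch-term fit called 3.81% of all genes and 8.8% of the bright genes lower, and the first 3 of these counts lie near or below those shares. The medians of the lists were -0.15, -0.04, -0.15 and -0.25. With the replicate block and a trended prior 1, 1, 0 and 1 genes passed, namely Polr2h, Emg1 and Ruvbl2. Polr2h, a subunit shared by all the nuclear polymerases, fell by 0.92 ± 0.12 (adjusted p = 0.0067), while Cd3eap, a polymerase I subunit, did not pass at -0.63 ± 0.27. Among small-subunit factors the methyltransferase gene Emg1 fell by 0.50 ± 0.06 and Wdr3 by 0.43 ± 0.07. Urb1 of the large-subunit list fell by 0.94 ± 0.20, and Ddx51 had -0.41 ± 0.12 without passing. The 4 snoRNP assembly genes that fell were Ruvbl2 (-0.64), Znhit3 (-0.64), Pih1d1 (-0.50) and Ruvbl1 (-0.37), the ATPases and adaptors that build box C/D particles. The unblocked fit called 0 genes of these 4 lists, with 1, 2, 1 and 2 at an unadjusted p under 0.05.

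The 3 control probe sets for 18S ribosomal RNA, the product of this pathway in the small subunit, read the labelled material and are not a calibrated measure of ribosomes. The 5′ probe set was at 7.74, 7.87 and 7.51 in normal sodium and at 8.25, 8.08 and 8.13 in low sodium. All low-sodium arrays were above all normal-sodium arrays, by 0.45 in the means (7.71 ± 0.18 against 8.15 ± 0.08, SD, n = 3; exact two-sided permutation p = 0.1). The 3′ probe set was at 7.82, 7.73 and 6.77 in normal sodium and at 8.24, 8.11 and 7.90 in low sodium. It too was higher in low sodium without overlap, by 0.64 (exact two-sided permutation p = 0.1). The middle probe set overlapped, at 6.91, 7.43 and 7.25 against 8.19, 7.62 and 6.89 (difference 0.37, exact two-sided permutation p = 0.5), and it was lower in low sodium within replicate 3. With 3 arrays in each medium this test cannot give a p below 0.1, and over the 11 control measures tested in this way the adjusted p was 0.55 for the 5′ and 3′ probe sets and 1.0 for the middle one. Differences between 3′ and 5′ probe sets of 4 endogenous transcripts, which read RNA integrity, differed between media by -0.01 in Gapdh, 0.00 in beta-actin, 0.04 in the transferrin receptor and -0.19 in pyruvate carboxylase (exact two-sided permutation p = 0.9, 1.0, 0.6 and 0.4). The same difference in the spiked controls parted the batches, at 1.29 in replicates 1 and 2 against 3.11 in replicate 3 for dap and at 0.95 against 2.35 for phe.

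**Figure D5:**
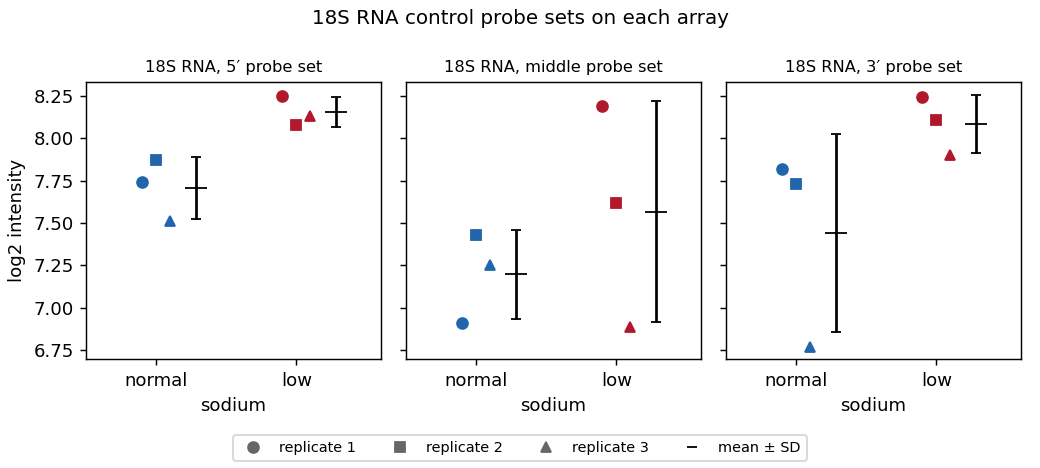
Log2 intensity of the 3 control probe sets for 18S ribosomal RNA on each of the 6 arrays, with blue for normal sodium, red for low sodium, symbol shape for the replicate number and bars for the mean ± SD of 3 arrays. Low-sodium arrays lie above normal-sodium arrays in the 5′ and 3′ probe sets, and the groups overlap in the middle one.

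Probe design limits some of these values. For 9 members the chosen probe set carries a suffix (_s_at or _x_at) that marks probes shared with further transcripts, and 3 of these, Polr1c, Fbl and Nop56, were among the genes that fell. Of the 47 members 29 had at least 1 further above-median probe set, and 12 of these 42 probe sets went against the chosen one. Among the genes that fell, 10 had such a probe set and 0 of 14 went against it.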

How the data were processed

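Biotin-labelled RNA of 6 RAW264.7 cultures was read on Affymetrix mouse arrays. The authors deposited a table of linear intensities for 45101 probe sets. The submitters' processing notes name Partek with no version, while the summarisation method and the build are not given in the sources used here. Between the 2nd and the 98th percentile, the values of every array averaged 500.0. The number of arrays limits the precision.

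Intensities were converted to log2(intensity + 1). The 64 control probe sets, 932 with several genes and 9160 with none in the platform annotation were left out of the tests. The probe set with the highest mean stood for each of 18193 genes, with no filter on low values, and symbols were updated through RefSeq (GRCm38.p6).

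limma 3.58.1 (R 4.3.3; lmFit and eBayes, two-sided, Benjamini-Hochberg adjustment over all genes) compared low with normal sodium on all 6 arrays, with a constant prior and no batch term. The batch-term fit added replicate 3 against replicates 1 and 2 and a trended prior. It was taken up with earlier counts of these arrays known, so its p-values are not those of a test chosen blind. Arrays with the same replicate number deviated together (r = 0.49, 0.48 and 0.61 over the 9096 genes above the median intensity), and replicates 1 and 2 did so with each other as well (r = 0.48 and 0.51). Nothing states separate cultures beyond the words biological replicates, so p-values measure the spread between these samples.

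The members and lists were chosen with earlier results of these data known. Values on every array are given for all polymerase I members and, in each other role, for the 3 members with the smallest unblocked p, the member with the smallest p against the role's direction and the brightest member. The 2 genes with the smallest unblocked p are named from each further list. Other genes of those lists, and the arrays of Dkc1 and Rrs1, were picked after their values were seen. Scripts were tested on simulated data.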

Additional observations from a re-analysis of the deposited data

How the results depend on the processing

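The unblocked fit called 1 gene and 0 members. Its count of genes was 0 with the replicate block and a constant prior, with quantile normalisation and with median centring, 2 with the batch term and a constant prior, 4 with a pseudocount of 16, 16 among genes above the median, 40 with a trended prior, 544 with the replicate block and a trended prior, 1382 with the batch term and a trended prior, 2705 with a trended prior in replicates 1 and 2 alone, and 0 to 3 without 1 array. Its count of members was 2 with the replicate block and a trended prior, 11 with the batch term and a trended prior and 24 in replicates 1 and 2 alone. Every other setting tried gave 0 members. In the batch-term fit the count of 11 members that fell was 2 with the replicate block in place of the batch term, 0 with a constant prior, 6 with median centring, 6 with the mean of all probe sets of a gene, 17 among genes above the median and 2 to 24 without 1 array, and it was 10 to 11 with a pseudocount of 16, quantile normalisation or a robust prior. In the batch-term fit 0 members rose under any of these settings. The median difference of the members stayed between -0.31 and -0.14 without 1 array and between -0.25 and -0.23 under the other settings. Of the 22 members named by rule, Polr1a changed sign with median centring (-0.003) and in replicates 1 and 2 alone (-0.11), Gnl2 in replicates 1 and 2 alone (-0.046), Rrn3 with quantile normalisation (0.007), and Taf1d (-0.26), Pes1 (0.22) and Bop1 (0.37) with the mean of all probe sets. Rrs1, given on every array as well, changed sign in replicates 1 and 2 alone (-0.10) and without 1 array (-0.37 to 0.28). Without 1 array, sign changes occurred in Polr1a (-0.28 to 0.19), Rrn3 (-0.077 to 0.084), Taf1d (-0.079 to 0.18), Nop14 (-0.068 to 0.24) and Gnl2 (-0.007 to 0.079). Of these members the batch-term fit called only Bop1, whose other probe set is dim. Within replicate 3 alone the 18S difference of the middle probe set was below 0, at -0.36. The 18S differences kept their sign under every other setting tried, at 0.35 to 0.53 (5′), 0.06 to 0.71 (middle) and 0.31 to 0.83 (3′) without 1 array. The cause of the changed counts was not tested.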

Other observations

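Genes next to the nucleolar pathway were read from 3 further lists, in the batch-term fit, which called 3.81% of all genes and 8.8% of the 7344 genes at least as bright as the dimmest member lower. Of 18 genes of the RNA exosome and of RNase MRP, which trim and cut the precursor of ribosomal RNA, 4 fell and 0 rose, with a median of -0.30, and 17 of the 18 differences were below 0. Pop5, a protein of RNase MRP and RNase P, was at 11.27, 11.30 and 11.70 in normal sodium and at 10.44, 10.45 and 10.92 in low sodium, and it fell by 0.82 ± 0.07 (adjusted p = 0.00129). The groups did not overlap, and replicate 3 had a difference of -0.78 against -0.84 in the others. Exosc8, an exosome ring subunit, fell by 0.61 ± 0.09, the nuclease gene Dis3 by 0.51 ± 0.08 and the helicase gene Mtrex by 0.35 ± 0.08.

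Of 18 polymerase III genes, whose products transcribe transfer RNAs and the smallest ribosomal RNA, 1 fell and 0 rose, with a median of -0.17. The 1 was Gtf3a, the initiation factor for that ribosomal RNA, at -0.49 ± 0.08 (adjusted p = 0.00986), and Polr3b (-0.54 ± 0.13, adjusted p = 0.0519) and Polr3k (-0.37 ± 0.09, adjusted p = 0.0511) missed the threshold. Of 44 measured ribosomal protein genes 1 fell and 0 rose, with a median of -0.06, a count below those shares, and 37 of the 44 were below 0 (50.8% of all genes and 54.4% of the bright genes were). The 1 was Rpl14, at a mean of 9.22 in normal sodium and 8.61 in low sodium (-0.61 ± 0.12), and Rps27 did not pass at 0.55 ± 0.35. Ribosomal protein genes have many near-identical pseudogenes, and 44 of the 79 listed had a probe set that carries 1 gene. The unblocked fit called 0 genes of these 3 lists, with 3, 1 and 0 at an unadjusted p under 0.05. With the replicate block and a trended prior 2, 1 and 0 genes passed (Pop5, Exosc8 and Gtf3a), and Rpl14 did not (adjusted p = 0.0818). These lists share the 6 arrays with the members, so they are no separate support.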
